A study of Mus musculus with 15 samples.

Results

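Proximal convoluted tubules from mice lacking claudin-10a were compared with those of wild-type mice across all genes, using the 7 proximal libraries out of 15 in the series. The proximal libraries were taken by their labels: 4 are WT (wild type; replicates 1, 2, 3 and 6, written here as WT 1, WT 2, WT 3 and WT 6) and 3 are Cldn10a KO (replicates 4, 5 and 7, written as KO 4, KO 5 and KO 7). Per the labels, tubules were prepared enzymatically from kidney slices, each proximal pool held 10 tubules per kidney, and no treatment was given before the kidneys were taken under isoflurane. The other 8 libraries, pools of about 20 distal convoluted tubules, are used only where a change is compared between the segments. The sources used here do not give the age or strain of the mice, the cells in which the gene was lost or the way the knockout was made. Whether each library stands for its own animal is not stated in the labels either, and p-values therefore reflect the spread among these pools, which may be technical.

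Claudins are tight junction proteins that decide which ions pass between epithelial cells. Claudin-10a forms anion-selective pores in the proximal tubule, where claudin-2 forms cation and water pores; claudin-10b, made from another first exon of the same gene, forms cation pores in the thick ascending limb. Along its length the proximal tubule changes: the early convoluted portion takes up most of the filtered glucose, amino acids and bicarbonate, and the straight portion expresses other transporters and enzymes of fatty acid and drug metabolism.

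The proximal libraries held 28729339 to 44895494 counts and detected 17945 to 18994 genes. Between 57.8 and 68.0% of counts were mitochondrial ribosomal RNA and only 12.5 to 19.7% came from nuclear protein-coding genes, so a nuclear gene was read at a fraction of the depth that the totals give. Xist had 0 or 1 count per library and chromosome Y genes 1191 to 1778, as in male tissue. The markers of proximal tubule were abundant in every pool: Lrp2, the endocytic receptor megalin, had 1693 to 2190 CPM (counts scaled to library size, with trimmed-mean factors) in wild type and 1810 to 2206 CPM in knockout, and Cubn, its partner cubilin, had 455 to 571 and 399 to 451 CPM. Of 12 genes expressed along the whole proximal tubule, 0 were called and the median log2 change was 0.03. In bulk pools of this kind, fewer cells of a type and less RNA per cell cannot be told apart.

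The targeted gene was read first. Cldn10 (GRCm38 chromosome 14, 118787908 to 118875489, + strand) has a transcript for claudin-10a that starts at base 118787908 and one for claudin-10b that starts at base 118854732; both join the shared second exon at base 118861696. The last coding bases of each first exon are shown in lower case and the first bases of the shared exon in capitals, as read from the GENCODE M21 transcripts, because the counts of this gene pool both forms.
claudin-10a (Cldn10-201): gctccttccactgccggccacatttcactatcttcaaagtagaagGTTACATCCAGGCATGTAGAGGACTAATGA
claudin-10b (Cldn10-203): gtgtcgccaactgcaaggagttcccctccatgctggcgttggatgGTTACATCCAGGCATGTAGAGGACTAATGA
Over both forms, Cldn10 had 13.2, 33.9, 33.7 and 20.8 CPM in WT 1, 2, 3 and 6, and 0 counts in KO 4, KO 5 and KO 7. The wild-type level varied 2.57-fold between its lowest and highest library, and none of its RNA was counted in knockout, at least 290-fold below the wild-type mean taking 3 counts in each library as the floor. By an exact permutation test (two-sided, 35 arrangements) p was 0.0571, and 0.0286 is the smallest p this design allows. The limma test gave an adjusted p of 0.0271, which passed 0.05 on 3 knockout libraries but not on any 2 of them (adjusted p of 0.255 to 0.417), with the counts still at 0.

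Across all genes, 22 of 13229 tested differed between knockout and wild type at a Benjamini-Hochberg adjusted p under 0.05 (limma on voom-weighted log2 CPM), which is 0.166% of the genes. Of these, 13 were higher in knockout (0.0983%) and 9, with Cldn10, were lower (0.068%). Among the higher genes were Lpl and Cd36 of fatty acid uptake, the omega-hydroxylases Cyp4a12a and Cyp4a12b, the export pump Abcc4 and the brush border peptidase Ace. Of the lower genes besides Cldn10, 3 encode glutathione transferases of the alpha class and 3 are annotated copies of 7SK RNA. Knockout and wild-type libraries did not overlap for any of the 22, whereas over all tested genes 4.11% did not overlap with knockout higher and 3.79% with knockout lower. Among all genes 48.4% lay above 0, with a median log2 change of −0.01. At an unadjusted p under 0.05 (limma), 557 of the 13229 genes were higher and 419 lower.

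**Figure D1:**
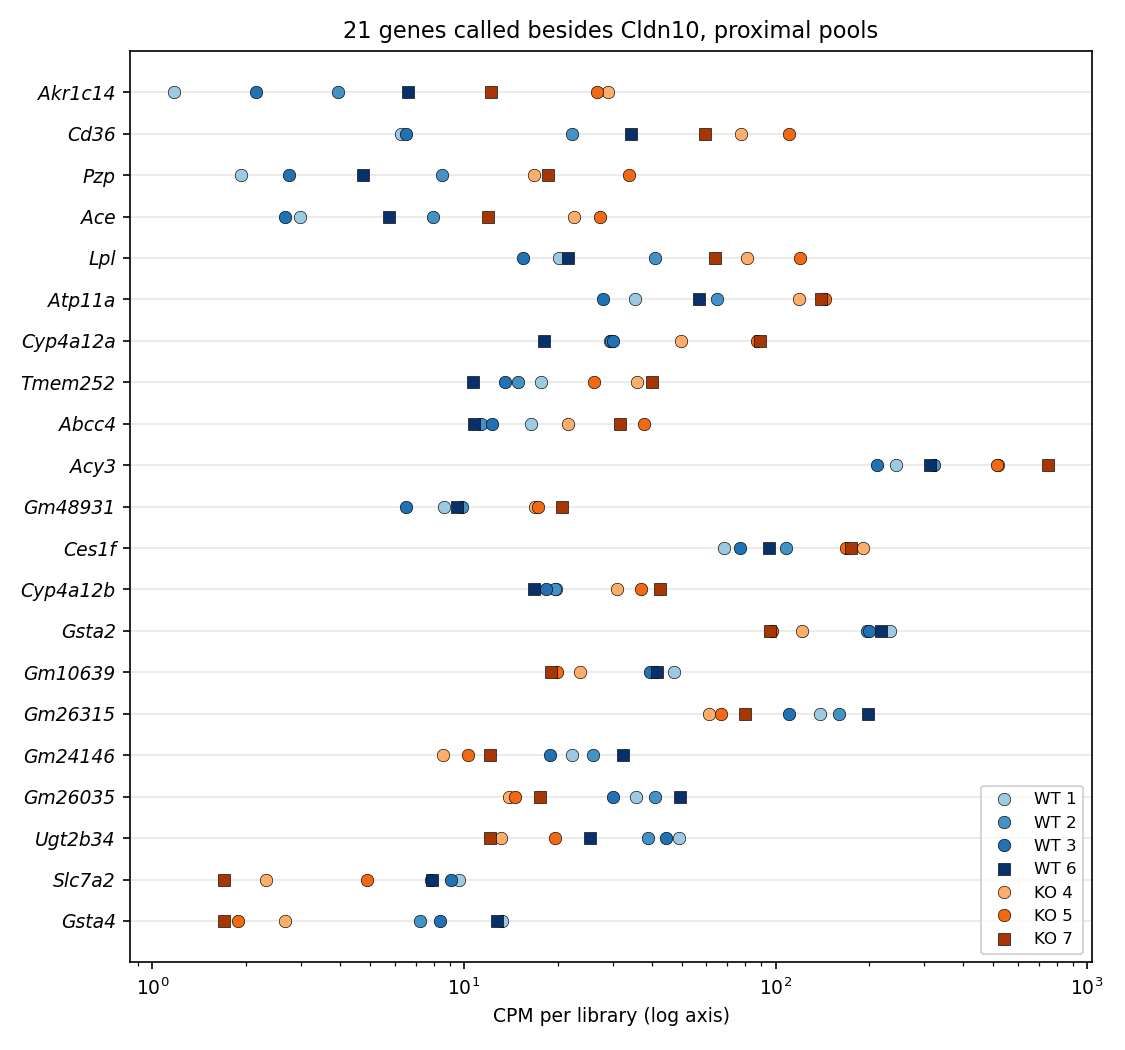
CPM in each proximal library (horizontal log axis) for the 21 genes called besides Cldn10, in order of log2 change; blue marks are wild type and orange marks knockout, with squares for WT 6 and KO 7. In every line the orange and blue marks are apart; Acy3 and Gsta2 are the most abundant of these genes, and Akr1c14 spans the widest range, from 1.17 CPM in WT 1 to 29.0 CPM in KO 4.

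Lpl and Cd36 act in the uptake of fatty acids. Lpl encodes lipoprotein lipase, which frees fatty acids from circulating triglyceride. It had 20.2, 41.0, 15.5 and 21.6 CPM in WT 1, 2, 3 and 6 against 80.9, 120 and 63.9 CPM in KO 4, 5 and 7, a log2 change of 1.90 ± 0.29 (SE, limma adjusted p = 0.0270). Cd36, a fatty acid transporter of the cell surface, had 6.26, 22.1, 6.49 and 34.3 CPM in wild type against 77.7, 110 and 59.4 CPM in knockout (log2 change 2.60 ± 0.47, limma adjusted p = 0.0476). For both genes KO 5 was highest and KO 7 lowest of the knockouts. For Cd36 the 5.48-fold spread within wild type was wider than the step of 1.73-fold from WT 6 to KO 7, and its call was lost with limma-trend (limma adjusted p = 0.0568) and with the library number range, described further on, as a term (0.060). Of 21 tested genes of fatty acid uptake and lipid handling, these were the 2 called, 12 lay above 0, and the median log2 change was 0.16 (−0.02 in WT 6 and KO 7 alone). Apoe, the lipoprotein apolipoprotein E, pointed the other way without passing the test: 21.2, 15.7, 21.3 and 12.3 CPM in wild type against 6.01, 8.23 and 7.43 CPM in knockout (log2 −1.26, limma adjusted p = 0.0514).

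Cyp4a12a and Cyp4a12b encode neighbouring fatty acid omega-hydroxylases that make 20-HETE in the male mouse kidney. Cyp4a12a had 29.4, 29.6, 30.2 and 18.0 CPM in WT 1, 2, 3 and 6 against 49.5, 87.1 and 89.2 CPM in KO 4, 5 and 7 (log2 change 1.47 ± 0.24, limma adjusted p = 0.0341). Cyp4a12b had 16.8 to 19.7 CPM (WT) and 31.0 to 42.7 CPM in knockout (log2 change 0.98 ± 0.16, limma adjusted p = 0.0369). The wild-type values of Cyp4a12b lay within 1.18-fold of each other. The coding sequences of the pair are 98.5% identical, with 23 differing bases of 1524 and an identical run of 342 bases, and no source used here says how reads that match both were counted, so the pair is best read as 1 signal. Of 37 tested genes of fatty acid oxidation and PPARA targets, a list that holds Cyp4a12a, this was the 1 called; 28 lay above 0 and the median was 0.25. That median was −0.06 between WT 6 and KO 7 and −0.03 with the segment score, described further on, as a covariate. Ehhadh, the bifunctional enzyme of peroxisomal oxidation, had 40.9 to 61.7 CPM (WT) and 66.0 to 107 CPM in knockout, apart but not called (log2 0.85, limma adjusted p = 0.173).

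The other higher genes have varied roles. Atp11a, a phospholipid flippase, had 35.5, 64.8, 28.0 and 56.9 CPM in WT 1, 2, 3 and 6 against 119, 144 and 140 CPM in KO 4, 5 and 7 (log2 change 1.62 ± 0.25, limma adjusted p = 0.0270). Acy3, aminoacylase-3, which deacetylates mercapturic acids, had 212 to 322 CPM (WT) and 514 to 749 CPM in knockout (log2 change 1.12 ± 0.19, limma adjusted p = 0.0382). Both are members of the list of straight-segment genes described further on. Ace, angiotensin-converting enzyme, was low in wild type (2.67 to 7.93 CPM) and had 11.9 to 27.4 CPM in knockout (log2 change 2.16 ± 0.36, limma adjusted p = 0.0369). Of 17 tested peptidases and angiotensin genes Ace was the 1 called; 13 lay above 0, and Mep1a, the meprin alpha peptidase, had 85.3 to 166 CPM (WT) and 197 to 226 CPM in knockout without passing the test (log2 0.82, limma adjusted p = 0.165).

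Ces1f, a carboxylesterase, had 68.5 to 108 CPM (WT) and 168 to 191 CPM in knockout (log2 change 1.05 ± 0.17, limma adjusted p = 0.0341). Akr1c14, an aldo-keto reductase of steroids, had 1.17, 3.93, 2.16 and 6.59 CPM in WT 1, 2, 3 and 6 against 29.0, 26.7 and 12.2 CPM in KO 4, 5 and 7 (log2 change 2.90 ± 0.44, limma adjusted p = 0.0270). Pzp, an alpha-2-macroglobulin-like protease inhibitor, had 1.93 to 8.52 CPM (WT) and 16.8 to 33.9 CPM in knockout (log2 change 2.53 ± 0.39, limma adjusted p = 0.0270). Tmem252, a membrane protein, had 10.7 to 17.6 and 26.1 to 40.1 CPM (log2 change 1.26 ± 0.20, limma adjusted p = 0.0341). The last of the higher genes was Gm48931, a processed pseudogene on chromosome 14, whose source gene was not looked up.

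Most organic ion transporters lay above 0 without passing the test. Of 32 tested members, 1 was called and 26 lay above 0, with a median log2 change of 0.53 against −0.01 for all genes. That median was 0.42 between WT 6 and KO 7 and 0.24 with the segment score as covariate. Knockout and wild type did not overlap for 10 members with knockout higher and 0 with knockout lower, against 4.11 and 3.79% of all genes. The called member was Abcc4, the export pump MRP4, at 16.4, 11.3, 12.3 and 10.8 CPM in WT 1, 2, 3 and 6 and 21.6, 37.9 and 31.6 CPM in KO 4, 5 and 7 (log2 change 1.24 ± 0.21, limma adjusted p = 0.0382). With the library number range as a term in the fit, the limma adjusted p of Abcc4 was 0.0505. Abcc4 is also a neighbour of Cldn10 on chromosome 14, on the other strand. It starts at base 118706219, upstream of the first exon of Cldn10, and runs away from it to base 118482692. Of 18 tested neighbours of Cldn10 on chromosome 14 Abcc4 was the 1 called, 13 lay above 0 and the median was 0.21 (0.10 without KO 5). For these neighbours the median was 0.02 between WT 6 and KO 7 and 0.0008 with the segment score as covariate. Slco1a6, an organic anion carrier, had 29.3 to 41.4 CPM (WT) and 54.8 to 74.0 CPM in knockout (log2 0.84, limma adjusted p = 0.0989), and Slc17a3, a urate carrier, had 81.5 to 119 and 141 to 202 CPM (log2 0.85, limma adjusted p = 0.0991). Slco1a1, of the same family as Slco1a6, was the most variable: 1.15, 9.33, 0.867 and 16.5 CPM in WT 1, 2, 3 and 6 against 39.1, 80.9 and 31.5 CPM in KO 4, 5 and 7 (log2 3.78, limma adjusted p = 0.0572).

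The lower genes were led by alpha-class glutathione transferases, which conjugate glutathione to electrophiles. Gsta4, specialised for the lipid peroxidation product 4-hydroxynonenal, had 13.2, 7.22, 8.36 and 12.7 CPM in WT 1, 2, 3 and 6 against 2.67, 1.88 and 1.70 CPM in KO 4, 5 and 7, and fell by 2.30 ± 0.33 on the log2 scale (SE, limma adjusted p = 0.0270). Gsta2 was the most abundant, at 233, 197, 199 and 218 CPM (WT) and 122, 97.3 and 96.1 CPM in knockout (fell by 1.02 ± 0.15, limma adjusted p = 0.0270). Gm10639, a gene model of the same family, had 39.6 to 47.3 CPM (WT) and 19.1 to 23.6 CPM in knockout (fell by 1.03 ± 0.16, limma adjusted p = 0.0270). Gsta1 and Gm3776 lay just outside the threshold, with log2 changes of −0.99 and −0.94 and limma adjusted p of 0.0514 and 0.0817. The wild-type values of Gsta2 lay within 1.18-fold of each other and the knockout values within 1.27-fold, while those of Gsta4 varied more.

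These genes lie together on chromosome 9. The 90 coding bases shown are those in which the close copies differ most from Gsta2, among the windows searched. The search left out the last part of the coding sequence. They are coding bases 421 to 510 from the GENCODE M21 transcripts, with differing bases in capitals, and show how little separates reads of one copy from another.
Gsta2: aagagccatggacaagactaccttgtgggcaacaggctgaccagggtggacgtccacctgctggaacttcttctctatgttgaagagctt
Gm10639: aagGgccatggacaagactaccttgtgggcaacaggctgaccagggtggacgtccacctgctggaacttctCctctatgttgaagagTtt
Gsta1: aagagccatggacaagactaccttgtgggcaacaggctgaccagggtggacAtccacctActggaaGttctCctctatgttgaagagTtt
Gm3776: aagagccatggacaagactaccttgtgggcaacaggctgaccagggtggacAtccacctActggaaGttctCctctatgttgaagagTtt
Over their coding sequences Gm10639, Gsta1 and Gm3776 are 98.5, 97.6 and 97.3% identical to Gsta2, with identical runs of 260, 196 and 171 bases, so the split of counts among these 4 genes is uncertain. Gsta4 is 66.6% identical to Gsta2, with no identical run longer than 13 bases.

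In order along the chromosome, the 7 tested genes from Rn7sk at base 78175303 to Gsta2 at base 78355788 all had knockout libraries below all wild-type libraries. Over all genes 3.79% did. This interval, 180.5 kb long, was drawn after its values were seen, from the first to the last such gene. That choice fixes the count and the overlap on either side, which are a description only. Gsta1, Gm3776, Gm10639 and Gsta2 are near-identical copies, and Rn7sk has lower copies on other chromosomes, described further on. They are Rn7sk (log2 −1.03), Gsta4 (−2.30), Gsta1 (−0.99), Gm3776 (−0.94), Gm10639 (−1.03), Gm8074 (−1.86, under 1 CPM in every library) and Gsta2 (−1.02). The tested genes on either side overlapped between the genotypes: Fbxo9 and Ick had log2 changes of 0.09 and 0.03, and Mto1 and Eef1a1 had 0.10 and 0.09. In distal tubule of the same study, Gsta4 had 35.9 CPM (WT) and 33.1 CPM in knockout (means of 4 libraries each), a log2 change of −0.13 ± 0.15 (SE, limma adjusted p = 0.886). Rn7sk had a distal change of 0.11 and Gsta2 of −0.06, the latter on about 2 CPM.

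**Figure D2:**
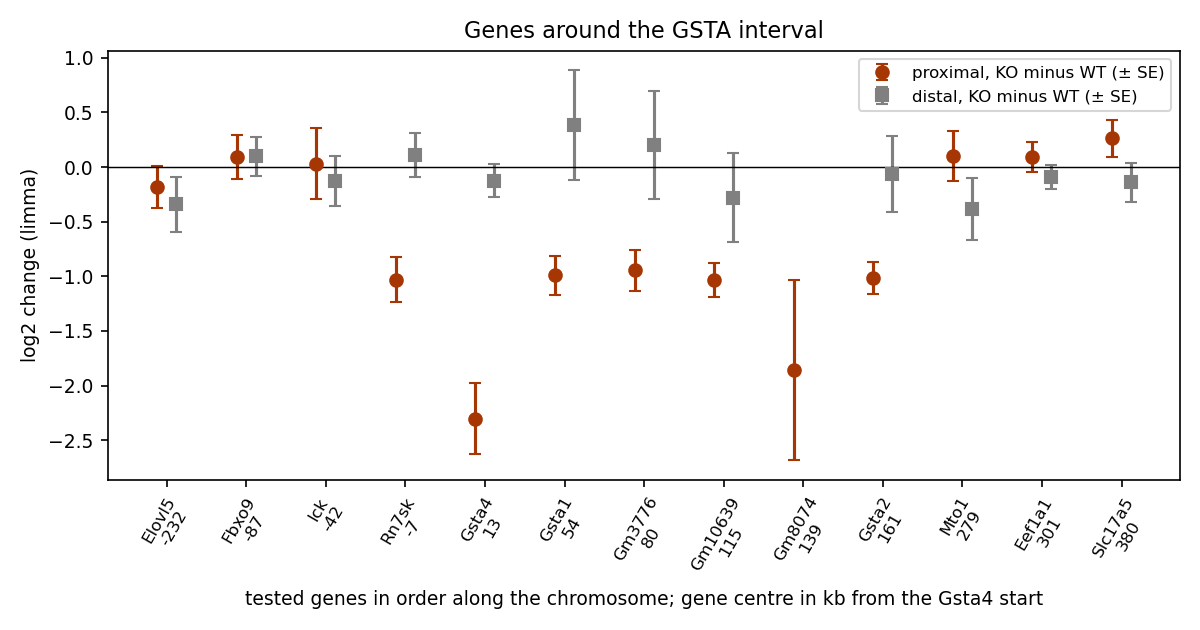
Log2 change between knockout and wild type (limma, ± SE) for the 13 tested genes around the glutathione transferase interval, in chromosomal order, with the distance of each gene's centre from the start of Gsta4 in kb under its name. In proximal pools (circles) the 7 genes from Rn7sk to Gsta2, an interval drawn from these values, lie between −0.94 and −2.30 and their neighbours near 0. The distal values (squares) of the genes tested there lie between −0.38 and 0.38.

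Of 27 tested glutathione transferases and NRF2 targets, 2 were called, both lower (Gsta4 and Gsta2), 9 lay above 0 and the median log2 change was −0.22. Over all genes 0.068% were called lower and 48.4% lay above 0. Without KO 5, which had the lowest summed level (4747 CPM, against 7080 CPM or more in the other 6 libraries), the median was −0.03. The enzymes that make glutathione did not share the direction: Gclc had 17.2 to 27.4 CPM (WT) and 28.9 to 48.1 CPM in knockout (log2 0.73, limma adjusted p = 0.281), and Gclm 36.0 to 51.5 and 60.6 to 69.2 CPM (log2 0.54, limma adjusted p = 0.346).

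Rn7sk is the gene of 7SK RNA, a small RNA made by RNA polymerase III that holds the elongation factor P-TEFb inactive, and 3 annotated copies of it elsewhere in the genome were among the 9 lower genes. The same 90 bases of each are shown (bases 21 to 110 of Rn7sk, bases that differ in capitals), since reads from this stretch can match several of them; 2 bases of it have no counterpart in Gm26035.
Rn7sk: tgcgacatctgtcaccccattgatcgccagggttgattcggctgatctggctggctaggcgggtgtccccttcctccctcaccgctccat
Gm26315: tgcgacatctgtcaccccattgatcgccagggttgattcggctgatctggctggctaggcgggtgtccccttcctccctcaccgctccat
Gm24146: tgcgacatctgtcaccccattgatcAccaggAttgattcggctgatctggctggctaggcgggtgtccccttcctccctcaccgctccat
Gm26035: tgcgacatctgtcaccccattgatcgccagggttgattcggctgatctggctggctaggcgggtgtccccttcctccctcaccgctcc
The longest identical runs with Rn7sk are 235 bases in Gm26315, 76 in Gm24146 and 109 in Gm26035, so these genes are not separate observations and may count one RNA. Rn7sk itself had 339, 390, 260 and 500 CPM in WT 1, 2, 3 and 6 against 152, 172 and 212 CPM in KO 4, 5 and 7, below the wild-type libraries but not called (log2 −1.03 ± 0.21, limma adjusted p = 0.0817). Gm26035 had 30.2 to 49.5 CPM (WT) and 13.96 to 17.5 CPM in knockout (fell by 1.33 ± 0.19, limma adjusted p = 0.0270), and Gm24146 and Gm26315 fell by 1.24 and 1.10. A second RNA of the same polymerase, 7SL, the RNA of the signal recognition particle, is annotated as Rn7s1 and Rn7s2, which are identical over 300 bases. Rn7s1 had 7.65, 10.5, 7.47 and 7.86 CPM (WT) and 3.66, 3.96 and 4.18 CPM in knockout (log2 −1.07, limma adjusted p = 0.0822). Rn7s1 and Rn7sk thus had similar log2 changes, neither past the test, while 7SK and 7SL share no identical run over 7 bases in a global alignment. Rpph1, another small RNA, overlapped between the genotypes. It had 0.663 to 1.15 CPM (WT) and 0.462, 1.94 and 0.206 CPM in KO 4, 5 and 7 (log2 −0.62, limma adjusted p = 0.858). Whether the polymerase has a part in these values was not tested.

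The remaining lower genes were Ugt2b34 and Slc7a2. Ugt2b34, a glucuronosyltransferase, had 49.1, 39.0, 44.6 and 25.4 CPM in WT 1, 2, 3 and 6 against 13.1, 19.6 and 12.1 CPM in KO 4, 5 and 7 (fell by 1.40 ± 0.24, limma adjusted p = 0.0382). Slc7a2, a carrier of cationic amino acids such as arginine, had 7.83 to 9.61 CPM (WT) and 1.70 to 4.88 CPM in knockout (fell by 1.69 ± 0.30, limma adjusted p = 0.0459, and 0.0505 with the library number range as a term). Of 21 tested amino acid transporters Slc7a2 was the 1 called and 6 lay above 0. The genotypes did not overlap for 3 with knockout lower and 0 with knockout higher, against 3.79 and 4.11% of all genes. The median over the 21 was −0.19. Without KO 5, whose members summed to 1224 CPM against 1710 CPM or more elsewhere, the median was −0.03. Among further genes below wild type in every knockout library, none of which passed the test, were Spp1, the secreted phosphoprotein osteopontin (119 to 225 CPM in wild type, 48.1 to 110 CPM in knockout, limma adjusted p = 0.131), Myof, a membrane repair protein (4.94 to 7.84 and 2.09 to 3.00 CPM, limma adjusted p = 0.119), and Slc34a3, a sodium-phosphate cotransporter (14.8 to 24.3 and 5.23 to 11.1 CPM, limma adjusted p = 0.107).

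The pathway of the targeted protein was read from the remaining claudins, their partners and the salt transporters. Cldn2 (chromosome X, 139800828 to 139811386) had 170, 212, 173 and 162 CPM in WT 1, 2, 3 and 6 and 184, 182 and 184 CPM in KO 4, 5 and 7; the knockout values lay inside the wild-type range, and the log2 difference of 0.04 had a 95% interval of −0.27 to 0.35. Of 6 tested claudins besides Cldn10, 0 were called by limma and 1, Cldn18, had an unadjusted p under 0.05, at 0.245 to 0.466 CPM (WT) and 0.462 to 1.09 CPM in knockout. Cldn12, a claudin that lets calcium pass, had 29.5 to 34.6 and 29.9 to 34.99 CPM. Of 20 partners of claudins at the junction, 0 were called, with a median of −0.04. The 1 whose groups did not overlap was Marveld3, at 2.47 to 2.73 CPM (WT) and 0.955 to 2.34 CPM in knockout (limma adjusted p = 0.664). Over all genes 3.79% did not overlap with knockout lower, so 1 of 20 is near that share.

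Of 24 tested genes of sodium, chloride and bicarbonate transport 0 were called by limma, 13 lay above 0 and the median was 0.07. At an unadjusted p under 0.05 there were 2 higher and 2 lower, against 557 and 419 of all 13229 genes. Slc9a3, the apical sodium-proton exchanger NHE3, had 21.7 to 39.5 CPM (WT) and 29.1 to 34.4 CPM in knockout, inside the wild-type range. Slc4a4, the basolateral bicarbonate carrier NBCe1, had 1200.1, 1015, 1026 and 1032 CPM in WT 1, 2, 3 and 6 and 723, 813 and 861 CPM in KO 4, 5 and 7, apart but not called (log2 −0.42 ± 0.14, limma adjusted p = 0.456). The carbonic anhydrases lay on opposite sides of 0, neither past the test: Car4, bound to the membrane, had 23.9 to 35.9 CPM (WT) and 44.0 to 55.1 CPM in knockout (log2 0.79, limma adjusted p = 0.122), and Car2, of the cytosol, had 107 to 119 and 68.3 to 99.4 CPM (log2 −0.44, limma adjusted p = 0.510). Aqp1, the water channel of proximal tubule, had 31.2 to 43.3 and 48.0 to 65.2 CPM (log2 0.68, limma adjusted p = 0.199).

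The pools were then compared by the RNA of genes typical of the early and of the straight segment, listed with earlier results of these data known. How much of each segment a pool held was not measured, since a change of these genes within cells moves the scores too. The straight-segment score is the mean, over the 19 tested of 20 listed genes, of log2 CPM centred on the mean of the 7 libraries; the early-segment score uses 16 genes. The straight score was −0.75, −0.13, −1.31 and −0.14 in WT 1, 2, 3 and 6 and 1.46, 0.78 and 0.09 in KO 4, 5 and 7. The early score was 0.31, 0.08, 0.25 and −0.10 in wild type and −0.18, −0.28 and −0.09 in knockout. The straight scores of the genotypes did not overlap, by a margin of 0.22 between KO 7 and WT 2, and the wild-type pools alone spanned 1.18, against a difference of group means of 1.36. The early scores overlapped, since WT 6 lay between KO 7 and KO 4.

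**Figure D3:**
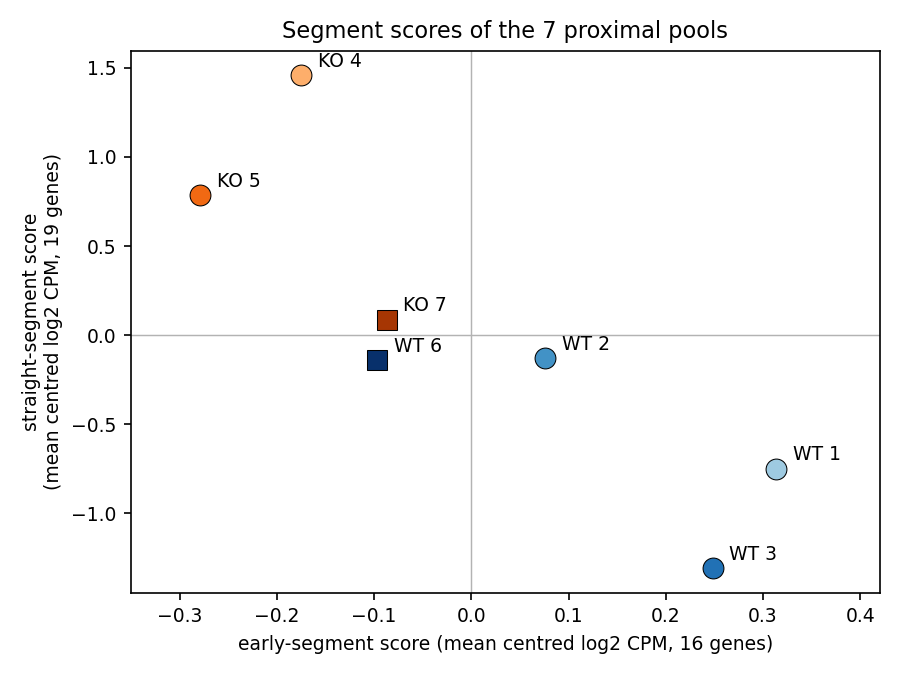
Straight-segment score (vertical, mean centred log2 CPM of 19 genes) against early-segment score (horizontal, 16 genes) for the 7 proximal pools; squares mark the lower-numbered pair, WT 6 and KO 7. KO 4 and KO 5 lie at the upper left, WT 1 and WT 3 at the lower right, and KO 7, WT 6 and WT 2 near the centre.

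Of the 19 straight-segment genes 17 lay above 0, 2 were called (Atp11a and Acy3) and the median log2 change was 1.12 (0.68 without WT 3). Over all genes 48.4% lay above 0 and 0.0983% were called higher. The genotypes did not overlap for 7 with knockout higher and 0 with knockout lower, against 4.11 and 3.79% of all genes. Slc7a13, an aspartate and glutamate carrier of the late straight segment, had 8.36, 24.4, 2.54 and 56.2 CPM in WT 1, 2, 3 and 6 and 102, 92.6 and 40.2 CPM in KO 4, 5 and 7 (log2 2.49, limma adjusted p = 0.297). WT 6 thus exceeded KO 7 for this gene. Acsm3, a medium-chain acyl-CoA synthetase, had 3.89, 10.7, 2.09 and 12.7 CPM (WT) and 30.4, 57.4 and 18.3 CPM in knockout (log2 2.49, limma adjusted p = 0.0891). Slc5a1, the glucose carrier SGLT1 of the straight segment, had 5.55, 5.25, 0.178 and 12.8 CPM (WT) and 10.96, 6.04 and 4.77 CPM in knockout, with WT 6 highest and KO 7 below WT 1 and WT 2 (log2 1.31, limma adjusted p = 0.798).

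Of the 16 early-segment genes 0 were called by limma, 12 lay below 0 and the median was −0.36. The genotypes did not overlap for 5 with knockout lower and 0 with knockout higher, against 3.79 and 4.11% of all genes. By limma 7 lower and 2 higher had an unadjusted p under 0.05, against 419 lower and 557 higher of all 13229 genes. Slc5a2, the glucose carrier SGLT2 of the early segment, had 68.9, 76.2, 95.2 and 47.4 CPM (WT) and 31.6, 39.1 and 51.0 CPM in knockout (log2 −0.81, limma adjusted p = 0.296), with KO 7 above WT 6. Spp2, a secreted phosphoprotein, had 43.7 to 73.6 and 22.7 to 38.1 CPM (log2 −0.98, limma adjusted p = 0.121). Slc7a7, the basolateral cationic amino acid carrier, had 81.4 to 129 and 62.3 to 69.5 CPM (log2 −0.58, limma adjusted p = 0.326).

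The library numbers in the labels offer a second reading, because they fall in 2 ranges: WT 6 and KO 7 form a lower-numbered pair, and the other 5 libraries carry higher numbers that lie close together. Among those 5, every wild-type library has a lower number than every knockout library, so number order follows genotype there. What separates the ranges is not stated. Within the 5 higher-numbered libraries the straight score was 1.85 higher in knockout and the early score 0.44 lower. In the pair of WT 6 and KO 7 the differences were 0.23 and 0.01, so these pools differed little in either score. The straight-segment genes had a median log2 difference of 1.60 within the higher-numbered libraries and −0.03 in the pair. For the called genes besides Cldn10 the median size was 1.23 within the higher-numbered libraries and 1.31 in the pair. Those genes were chosen on all 7 libraries, the pair included, which fixes their direction and favours their size in both ranges, so these values are a description only. Cd36 and Akr1c14 were smaller in the pair, with 3.26 and 3.69 in the higher-numbered libraries and 0.79 and 0.88 in the pair; Gsta4 (−2.04 and −2.90), Cyp4a12a (1.14 and 2.31) and Slc7a2 (−1.39 and −2.21) were larger in the pair.

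**Figure D4:**
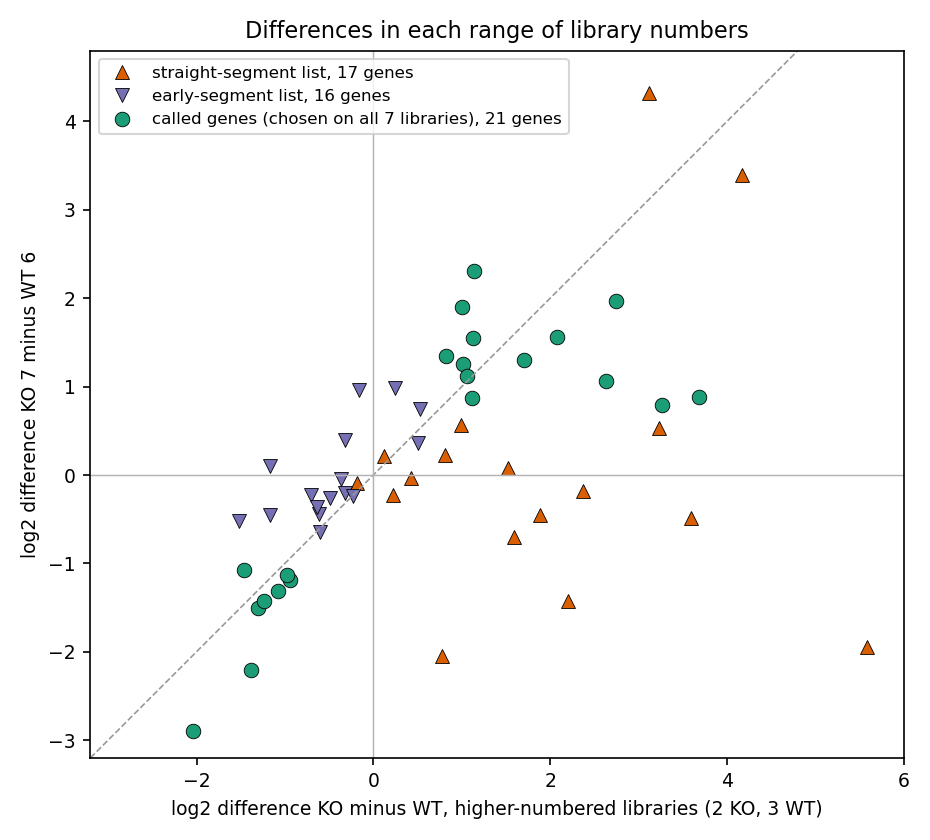
Log2 difference between KO 7 and WT 6 (vertical) against that between the 2 knockout and 3 wild-type libraries with higher numbers (horizontal), for 17 uncalled straight-segment genes, 16 early-segment genes and the 21 called genes besides Cldn10; the dashed line marks equality. Most straight-segment genes lie to the right and scatter around 0 on the vertical axis, while the called genes have the same sign on both axes, which their choice on all 7 libraries fixes; the 2 triangles at the top are Slc22a19 and Slc22a13, which had 0 counts in WT 6.

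So that choice and reading did not use the same libraries, the 5 higher-numbered libraries were also fitted alone, with WT 6 and KO 7 held out (an alternative chosen after seeing the data). It called 20 genes, of which 12 had the same direction in the held-out pair, with a median of 0.38 there against 2.70 in the 5 libraries. Lpl (2.08 and 1.56), Pzp (2.75 and 1.97), Ugt2b34 (−1.46 and −1.07) and Gm26035 (−1.31 and −1.50) kept much of their size in the pair, and Ace kept less (2.65 and 1.06). Slc7a13 (3.61 and −0.48), Cyp2d9 (3.14 and −1.26), Cyp2a4 (3.21 and −0.50) and Azgp1 (3.12 and −0.46) reversed there. Of the 100 genes with the smallest p that were higher in the 5 libraries, 68 were higher in the pair, and of the 100 lower ones 62 were lower; over all 13561 genes tested, 6618 shared the direction. The pair is 1 library of each genotype, so it has no replicate check.

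The score was also put into the fit as a covariate. With the straight-minus-early score beside the genotype, 0 of 13229 genes were called by limma, 421 had an unadjusted p under 0.05 and the lowest adjusted p was 0.325. Score and genotype overlap closely in these 7 pools, and the median SE of the 21 called genes besides Cldn10 went from 0.21 to 0.35. Their median size went from 1.33 to 1.16, the sign was kept for 21 of 21, and the 95% interval left out 0 for 19 of 21, all except Cd36 and Ace. The 21 genes were chosen on the genotype difference in these same 7 libraries, and Atp11a and Acy3 also enter the score. That choice favours kept signs and intervals clear of 0, so these counts are a description only. Gsta4 (−2.49 ± 0.51), Cyp4a12a (2.16 ± 0.34) and Abcc4 (1.66 ± 0.35) were as large as without the score, whereas Akr1c14 went from 2.90 to 1.11, Ace from 2.16 to 0.78 and Cd36 from 2.60 to 0.82. How much of the genotype difference comes from the portion of tubule picked was not tested apart from this fit, and with scores this close to the genotypes the portions due to each cannot be told apart.

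A list of genes known as higher in male than in female proximal tubule is shown beside these results because its median lay above 0 in both ranges. Other lists did so too, among them organic ion transporters (0.55 in the higher-numbered libraries and 0.42 in the pair). Brush border peptidases and angiotensin genes had 0.51 and 0.19, whereas straight-segment genes had 1.60 and −0.03. Of the 19 tested genes of the male list, 3 were called higher (Pzp, Cyp4a12a and Ces1f) and 1 lower (Gsta4), against 0.0983 and 0.068% of all genes. In that list 16 lay above 0, against 48.4% of all genes. Knockout and wild type did not overlap for 10 with knockout higher and 1 with knockout lower, against 4.11 and 3.79% of all genes. The median log2 change was 0.94, with 0.97 in the higher-numbered libraries, 0.81 in the pair of WT 6 and KO 7 and 0.52 with the score as covariate. The male list is shown for its medians in the ranges, so those values are a description only. Kap, the androgen-regulated kidney protein, had 429, 1054, 348 and 1489 CPM in WT 1, 2, 3 and 6 and 2254, 1382 and 2257 CPM in KO 4, 5 and 7, with WT 6 above KO 5 (log2 1.46, limma adjusted p = 0.269). Ugt8a, a glycosyltransferase, had 26.4 to 44.0 and 57.2 to 71.0 CPM (log2 0.94, limma adjusted p = 0.0817), and Cyp2j13, an epoxygenase, 73.9 to 98.8 and 125 to 179 CPM (log2 0.75, limma adjusted p = 0.135). Of 14 tested genes known as higher in females, 1 was called, Abcc4, also higher in knockout, and the median was 0.29, with 0.40 in the higher-numbered libraries, −0.10 in the pair and −0.12 with the score as covariate. Slc7a13 and Acsm3 are on both the male and the straight-segment list.

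Many calls were lost when 1 library was left out, which also leaves the test fewer libraries. Leaving out 1 library at a time left 2 to 18 genes called: 2 without WT 1, 7 without WT 2, 9 without WT 3, 18 without WT 6, 4 without KO 4, 6 without KO 5 and 10 without KO 7. Of the 22 genes, between 1 (without WT 1) and 10 (without WT 6) were still called, and all 22 kept their direction each time. Pzp and Gsta2 were called in 4 of the 7 fits, Cldn10 in 4, Gsta4, Atp11a and Gm26035 in 3, and Acy3, Ces1f, Cyp4a12b and Gm48931 in 0. Over these fits the log2 change of Gsta4 ran from −2.50 to −2.17 and that of Lpl from 1.64 to 2.17, so the sizes moved less than the calls.

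**Figure D5:**
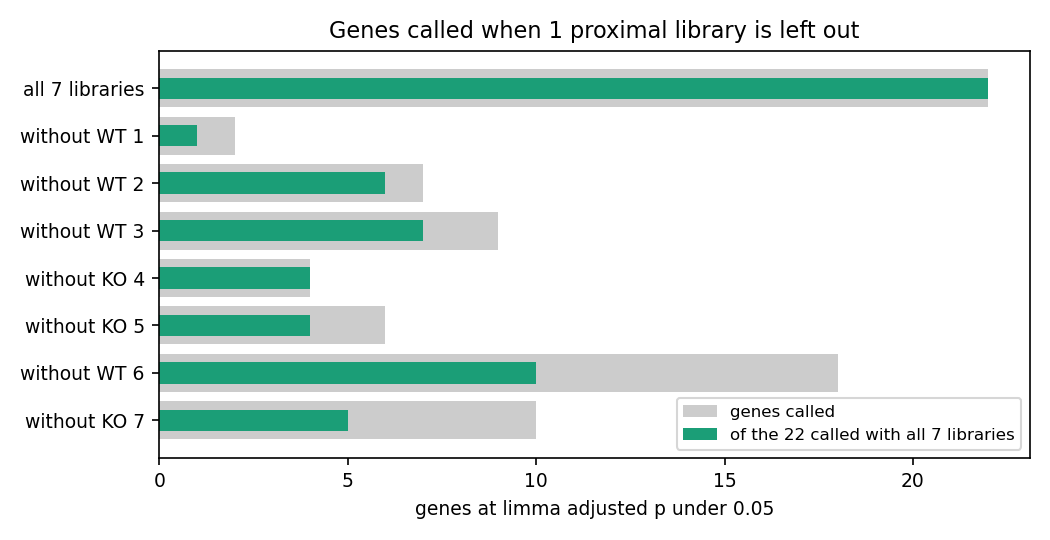
Number of genes at a limma adjusted p under 0.05 with all 7 libraries and with each library left out (grey bars), and how many of them are among the 22 called with all 7 (green bars). The count drops from 22 to 2 without WT 1 and stays highest, at 18, without WT 6.

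Between the segments, the change in proximal tubule was set against that in distal tubule with an interaction term over all 15 libraries. By limma, 0 of 15279 genes were called, while 849 had an unadjusted p under 0.05, and the lowest adjusted p, 0.118, was that of Gsta4 (proximal minus distal −2.16). limma-trend called 5 (Klk1, Slc12a3, Cldn10, Gsta4 and Tmem45b) and sample quality weights 0. Tnfsf10, an apoptosis ligand, was called without WT 6 and without KO 7, and Gsta4 without WT 2. No gene was thus called as particular to the proximal tubule in the planned fit, whose estimates for genes near 0 CPM in one segment are imprecise.

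Genes of other nephron segments and cell types were also read. Slc12a3, the salt cotransporter of distal convoluted tubule, had 0.342, 0.368, 0.245 and 0.324 CPM in WT 1, 2, 3 and 6 and 0.066, 0 and 0 CPM in KO 4, 5 and 7, and Klk1, kallikrein of the connecting tubule, had 0.667 to 1.03 and 0 to 0.129 CPM. Neither passed the test (limma adjusted p = 0.242 and 0.103). Each was the 1 member of its list whose groups did not overlap, against 3.79% of all genes with knockout lower. Of 6 tested genes of distal convoluted tubule 0 were called and 2 lay above 0 (median log2 change −0.21). Of 4 tested genes of connecting tubule and principal cells 0 were called and 0 lay above 0 (median −0.60). In wild-type proximal pools Slc12a3 and Klk1 were at 0.0551 and 0.0313% of their distal level (each segment scaled on its own), whereas Gsta4 was at 28.9%. Of 16 endothelial genes 0 were called by limma, and 6 were higher at an unadjusted p under 0.05 (557 of all 13229 genes were). All 16 lay above 0, against 48.4% of all genes, with a median of 0.61. Their summed level was 27.6, 40.1, 46.3 and 53.8 CPM (WT) and 80.4, 78.1 and 44.6 CPM in knockout, and the median difference was −0.41 in the pair of WT 6 and KO 7 and −0.07 with the score as covariate. Lpl and Cd36 are also made by endothelial cells. Immune markers summed to 4.91 to 12.3 CPM in wild type and 31.1, 3.35 and 5.63 CPM in KO 4, 5 and 7, so KO 4 stood apart. The part of these cells in the other results was not tested.

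The authors' deposited table of the same comparison holds adjusted p for 14748 genes, of which 136 are under 0.05. By the sign of Cldn10 in it, 84 of them are higher and 52 lower in knockout. Of those 136 genes, 133 were tested here, and all 133 had the same direction in the 7 libraries, which are the same data. The authors' deposited table calls 21 of the 22 genes called here, all except Cd36, for which it gives an adjusted p of 0.104.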

How the data were processed

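RNA was sequenced from pools of hand-dissected tubules. RNA isolation used the RNeasy Plus Micro kit and library preparation Nextera XT, per the labels' protocols. Named in the submitters' processing notes are CASAVA 1.8, STAR 2.5, DESeq2 1.24.0 and the build GRCm38. The sources used here do not give the counting program, its annotation or its strand setting. Counts are therefore uncertain where genes overlap in antisense or share near-identical sequence. The authors deposited whole-number counts per gene (recorded as other, since the layout of the file could not be checked as counts) and a table of log2 fold changes and adjusted p-values, also recorded as other. For that reason no count model was fitted here. All count columns matched a sample.

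The 7 proximal libraries were fitted with limma 3.58.1 in R 4.3.3: log2 CPM with a prior count of 0.5, trimmed-mean scale factors (30% of log ratios and 5% of intensities trimmed), voom weights and moderated linear models, with Benjamini-Hochberg adjustment over all genes and calls under 0.05. A gene was kept with about 10 counts, scaled to library size, in at least 3 libraries and a total of 15. Cldn10 was exempt. Symbols and coordinates come from GENCODE M21, which names 54723 of 54752 genes. The fit was tested on simulated data. Floors use 3 counts and, like intervals of counts, cover counting error only.

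The comparison, the gene lists and the segment markers were chosen with earlier results of these data known, so lists are described by counts and medians and not tested. Named genes are Cldn10, Cldn2, all called genes, the leading genes with a mean of at least 2 CPM and groups apart, leading members of each list, and the smallest p-values of the interaction. The 7SK and 7SL genes, Rpph1, the chromosome 9 interval, Azgp1, Cyp2d9 and the neighbours of the interval were named after their values were seen. Alternatives changed the scaling, the filter, the variance model, the libraries fitted, the threshold, the library number range and the segment score.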

Additional observations from a re-analysis of the deposited data

Results flagged for a closer look

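Of 77 genes checked, 8 had 1 wild-type library far from the other 3 (Dixon's test at 95%, which chance meets in about 1 group of 20). WT 6 held the low value of Cyp4a12a (18.0 CPM) and the high values of Tnfsf10 (4.35 CPM), Azgp1 (4.51 CPM) and Cyp2d9 (12.5 CPM). WT 2 held the high values of Rn7s1 (10.5 CPM) and Rn7s2 (10.7 CPM), which are 1 sequence. WT 1 held the high values of Slc4a4 (1200.1 CPM) and Cubn (571 CPM).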

How the results depend on the processing

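Against 22 genes called, there were 80 with no filter on low counts, 36 with a stricter filter, 40 with sample quality weights, 123 with all 15 libraries in 1 fit, 46 at an adjusted p under 0.1, 0 with the segment score as covariate, and 2 to 18 with 1 library left out. The 5 higher-numbered libraries alone gave 20, and the other scalings, limma-trend and the range term 22 to 29; of the 22 genes, limma-trend lost Cd36 and the range term lost Cd36, Slc7a2 and Abcc4. For the interaction the count of 0 became 5 with limma-trend and 0 to 1 with 1 library left out, as 1 predicted gene was called without WT 3. Cldn10 had a limma adjusted p of 0.363 with the score as covariate (log2 −10.68); over the libraries left out its log2 change ran from −10.96 to −10.50. The straight score difference, 1.02 to 1.70 with 1 library left out, was 0.23 in the lower-numbered pair, and the early one, −0.39 to −0.26, was 0.0099.

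No gene named as called reversed. With the score as covariate these changed sign: Cyp2a4 (−0.19), Slc7a13 (−0.68), Cyp2d9 (−0.75), Slc22a19 (−0.90), Slc5a1 (−2.30), Nr1d2 (−0.61), Bhlhe40 (−0.66), Eef1a1 (−0.030), Mto1 (−0.29), Slc9a3 (−0.16), Cldn12 (−0.090), Cldn2 (−0.019), Ick (−0.65) and Arntl (2.76). With 1 library left out the sign also changed within the ranges of Slc5a1 (−0.11 without WT 3, to 1.99), Nr1d2 (−0.0091 without WT 3, to 0.66), Slc9a3 (−0.083 without WT 3, to 0.21), Fbxo9 (−0.065 without KO 4, to 0.24), Cldn12 (−0.0039 without KO 4, to 0.11), Cldn2 (−0.0086 without WT 6, to 0.12), Lrp2 (−0.049 without WT 6, negative also without KO 4 and KO 5, to 0.098), Ick (−0.16 without KO 5, negative also without WT 1 and WT 3, to 0.22) and Arntl (−1.98 without KO 5, positive without WT 2, WT 3 and KO 4, to 1.59). Lrp2 (−0.0022) and Ick (−0.062) also reversed with quality weights, and Ick (−0.026) with the range term. The range of Rpph1 with 1 library left out, −1.52 to 0.18, also held both signs. The cause was not tested. Nuclear protein-coding genes hold under 20% of the counts, which limits genes near 1 CPM. No paired analysis was possible because the 2 proximal groups share no replicate number.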

Other observations

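Clock genes differed more between pools than between genotypes. Arntl, the activator BMAL1, had 0.122, 1.28, 3.38 and 0 CPM in WT 1, 2, 3 and 6 and 0, 3.44 and 0.336 CPM in KO 4, 5 and 7. Bhlhe40, a repressor in the clock, had 26.5, 8.81, 4.45 and 16.7 CPM in wild type and 31.3, 11.7 and 11.7 CPM in knockout, and Nr1d2, a nuclear receptor that represses Arntl, had 31.0, 16.4, 7.94 and 29.3 CPM and 34.4, 21.2 and 20.8 CPM. WT 3 and KO 5, where Arntl was highest, belong to different genotypes, and WT 1, WT 6 and KO 4, where it was at or near 0, had the highest Nr1d2. Of 19 tested clock genes 0 were called by limma and 0 had an unadjusted p under 0.05. The hour at which each kidney was taken is not given in the sources used here.

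Genes of ribosomal proteins and of the respiratory chain set 1 library apart. Of 78 ribosomal protein genes 4 lay above 0, and of 76 nuclear genes of oxidative phosphorylation also 4, with median log2 changes of −0.29 and −0.29. Ribosomal protein genes summed to 2489 to 3030 CPM in wild type and 2728, 1431 and 2919 CPM in KO 4, 5 and 7, and without KO 5 their median was 0.01 and that of the oxidative phosphorylation genes −0.04. Rps21, of the small ribosomal subunit, had 15.7 to 16.4 CPM in wild type and 12.2, 4.94 and 12.5 CPM in KO 4, 5 and 7 (limma adjusted p = 0.435). Cox6c, of cytochrome c oxidase, had 66.6 to 83.8 CPM in wild type and 61.1, 34.7 and 55.6 CPM in knockout (limma adjusted p = 0.376). The 13 proteins encoded by the mitochondrial genome had a median of −0.13.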
